A study of Homo sapiens with 54 samples.

Results

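Transcripts of 5 dual-specificity phosphatases, DUSP1, DUSP4, DUSP5, DUSP6 and DUSP10, were followed in HT-29 cells, an epithelial line derived from a colon adenocarcinoma. The genes were chosen by symbol: every probe set that the platform annotation gives to 1 of these symbols was taken, which found 10 probe sets for 5 of the 11963 genes named on the array. All cells, controls included, had received interferon-gamma (200 U/ml for 24 h, the priming), which sensitizes them to tumour necrosis factor (TNF). They then received no further factor (called untreated below, though primed), TNF alone (5 or 100), epidermal growth factor (EGF) alone (100), insulin alone (500), TNF 100 plus either EGF 100 or insulin 500, or TNF 5 plus either EGF 1 or insulin 5, all in ng/ml. RNA was collected at 4, 8 and 16 h in biological duplicate, so that 9 treatments and 3 times made 27 groups of 2 arrays, 54 in all. No group without interferon-gamma and no time before 4 h was analysed here, and all arrays come from 1 cell line.

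Mitogen-activated protein (MAP) kinases are switched on by phosphorylation of a threonine and a tyrosine in their activation loop, and dual-specificity MAP kinase phosphatases switch them off by removing both phosphates. Many of these phosphatases are themselves transcribed in response to MAP kinase activity, so that they form a negative feedback on the pathway. DUSP5, in the nucleus, and DUSP6, in the cytoplasm, act mainly on ERK, whereas DUSP1 and DUSP4, both nuclear, act on ERK, JNK and p38 to differing extents, and DUSP10 acts mainly on JNK and p38. TNF activates JNK, p38 and NF-kB through its receptors, EGF activates ERK through its receptor tyrosine kinase, and insulin acts chiefly through phosphoinositide 3-kinase and Akt. The arrays measured messenger RNA alone, not the phosphatase proteins or the activity of the kinases.

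Upstream sequence was in the RefSeq table (assembly GRCh38.p14) for 3 of the 5 genes, DUSP1, DUSP6 and DUSP10. The 250 bases before the start site of DUSP1 and of DUSP6 are shown because both genes rose with TNF at 4 h, as described below; capitals mark motif matches. The DUSP1 stretch lies at chr5:172771196-172771445 and the DUSP6 stretch at chr12:89352502-89352751, both on the minus strand.
DUSP1: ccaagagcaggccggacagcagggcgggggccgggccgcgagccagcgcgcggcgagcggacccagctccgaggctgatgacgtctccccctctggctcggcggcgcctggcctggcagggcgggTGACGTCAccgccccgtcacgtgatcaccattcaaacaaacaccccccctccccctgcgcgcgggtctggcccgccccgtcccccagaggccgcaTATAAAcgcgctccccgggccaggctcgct
DUSP6: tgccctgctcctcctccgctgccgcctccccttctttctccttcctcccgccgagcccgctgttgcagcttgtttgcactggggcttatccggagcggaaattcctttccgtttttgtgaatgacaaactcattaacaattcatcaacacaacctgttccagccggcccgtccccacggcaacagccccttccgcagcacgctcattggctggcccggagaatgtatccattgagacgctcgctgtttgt
The windows searched, on both strands, ran from 250 bases before to 50 after the start site. The motifs were the cyclic AMP response element (TGACGTCA), the AP-1 site (TGANTCA), the ETS site (CCGGAAGT), the TATA box (TATAAA) and, by name, the NF-kB site and the serum response element core (CArG box). In DUSP1 a cyclic AMP response element began at position -125 and a TATA box at position -30, counted from the start site, and they do not overlap. Of 35116 promoters in the table, 1.85% held that response element and 11.5% held that TATA box. The DUSP6 window and both DUSP10 windows held 0 matches, which says only that those letters are not in those windows. The other shares were 7.71% for AP-1, 4.14% for ETS, 11.3% for NF-kB and 1.29% for the CArG box.

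Signals are MAS5 intensities as the authors deposited them, on a linear scale and scaled to a common target on each array. Each gene is described by 1 probe set, the brightest that is specific to it, and signals of different genes are not compared because probe sets differ in brightness. Over the 54 arrays the mean signal of that probe set was 2148 for DUSP6, 1148 for DUSP5, 768 for DUSP1, 89.6 for DUSP10 and 65.6 for DUSP4. A probe set entered the tests if the mean of at least 1 group reached a signal of 138.9, the median of all values. All 5 genes entered, but DUSP4 only through untreated cells at 16 h and DUSP10 only through TNF with insulin 500 at 8 h. Their means were below that median in all other groups, although single arrays of DUSP4 exceeded it. Of the 5 remaining probe sets, the other 2 of DUSP6, with mean signals of 1120 (called the second below) and 700 (the third), entered the tests, and 1 each of DUSP1, DUSP4 and DUSP10 did not.

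The lowest and highest group means of DUSP5 were 237 (insulin, 4 h) and 3230 (TNF 100 with EGF 100, 16 h), a 13.6-fold range. DUSP1 ranged from 184 with insulin at 4 h to 1844 with TNF 100 and insulin at 16 h. DUSP6 ranged 6.82-fold, from 531 in untreated cells at 4 h to 3617 with TNF 100 and insulin at 8 h. DUSP4 ranged from 17.2 (insulin, 8 h) to 180 (untreated, 16 h) and DUSP10 from 52.8 (untreated, 8 h) to 145 (TNF 100 with insulin, 8 h). When the 27 groups were put in order of level, most neighbours could not be told apart. The step to the next group exceeded the pooled standard deviation of replicates in 5 of 26 steps for DUSP1 (SD 0.26 on the log2 scale) and 5 of 26 for DUSP5 (SD 0.25), in 2 of 26 for DUSP6 (SD 0.35), and in 0 of 26 for DUSP4 (SD 0.52) and for DUSP10 (SD 0.23). The widest single step, 0.96 in log2, lay between DUSP6 in untreated cells at 4 h, the lowest group, and the next group, EGF at 4 h.

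**Figure D1:**
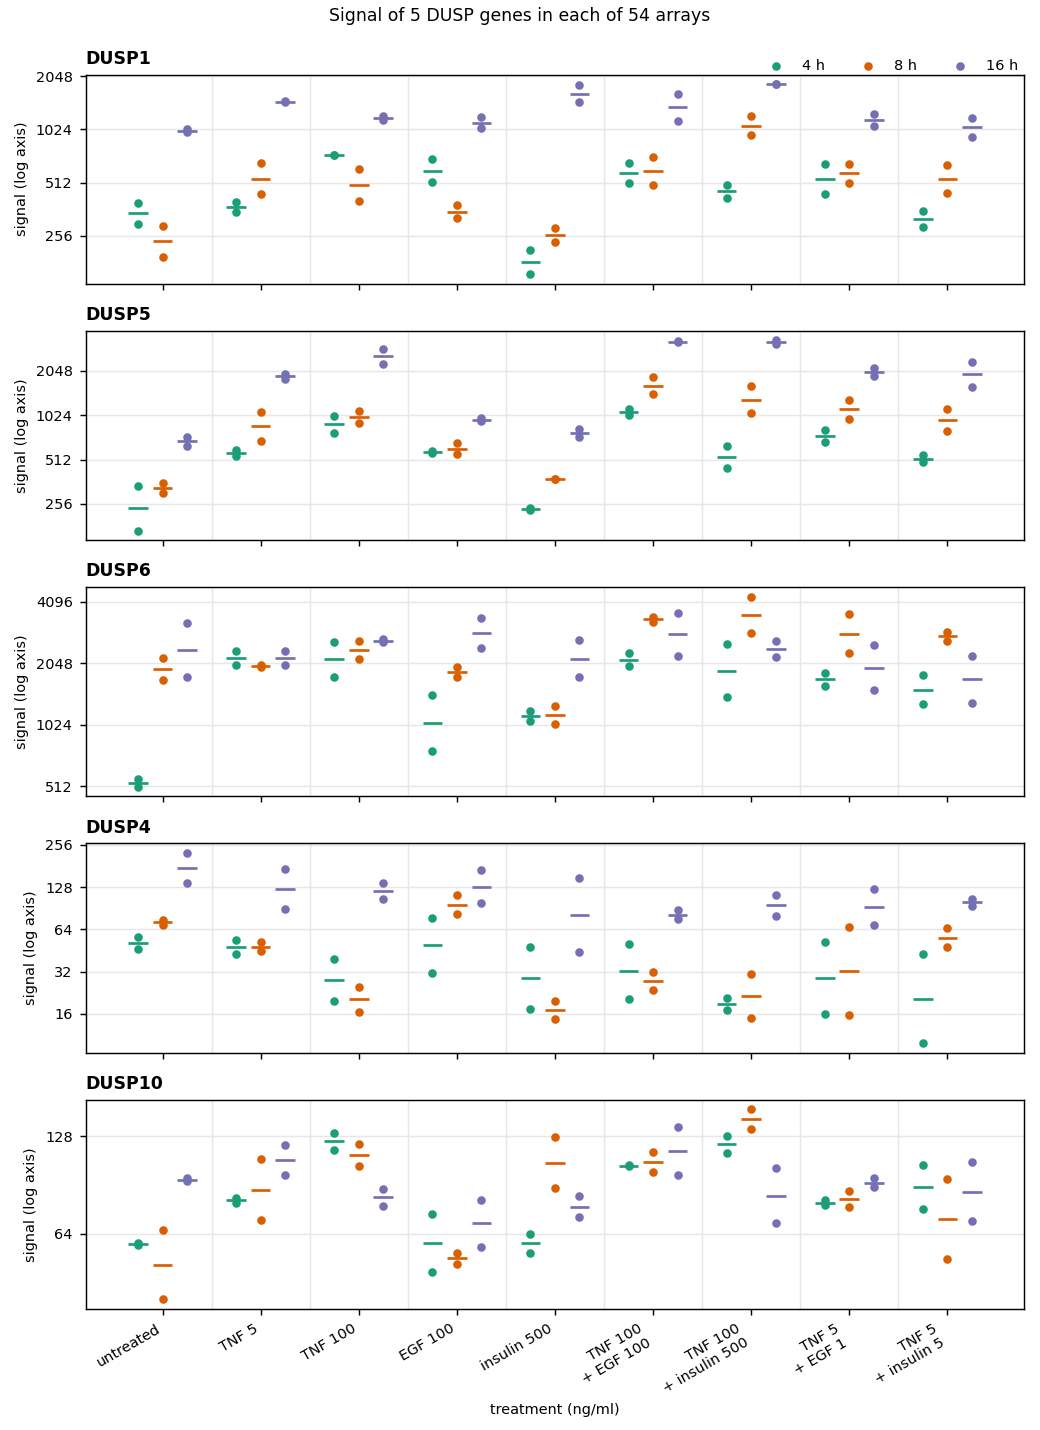
Signal of each gene in all 54 arrays (points; 2 arrays per group, log axis) by treatment (doses in ng/ml) and time (colours); short lines are the geometric mean of the 2 arrays. DUSP1 and DUSP5 lie highest at 16 h in every treatment, and DUSP6 is lowest in untreated cells at 4 h.

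Differences below are in log2(signal + 12.49). Unless a time is named, a value is the mean of the differences at 4, 8 and 16 h with its standard error (n = 6 arrays per treatment), and its p is limma's moderated F test over the 3 times, adjusted by Benjamini and Hochberg over 13422 probe sets. A gene is called, and is said to rise or fall, when that adjusted p is under 0.05. Pairs count arrays that share time and replicate number across a comparison.

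TNF at 100 ng/ml raised 4 of the 5 phosphatases over untreated cells, DUSP5, DUSP6, DUSP1 and DUSP10, and none fell. Among all 13422 probe sets 6.68% were called higher in this comparison, and the median difference was 0.78 for the 5 genes and -0.08 for all probe sets. At 4 h alone DUSP5, DUSP6 and DUSP1 were called higher (background 2.7%), at 8 h DUSP5 and DUSP1 (2.76%), and at 16 h only DUSP5 (5.47%).

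DUSP5, the nuclear phosphatase of ERK, was raised by TNF at each time. In untreated cells its signals were 337 and 169 at 4 h, 354 and 306 at 8 h, and 727 and 637 at 16 h. With TNF 100 they were 780 and 1007, 1101 and 907, and 2887 and 2279. The TNF arrays were above the untreated arrays of the same time without overlap, by 1.77 ± 0.14 (3.40-fold; adjusted p = 1.12e-10; higher in 6 of 6 pairs). Each time was called, the differences being 1.84 (4 h), 1.57 (8 h) and 1.90 (16 h). Over all treatments, the 12 arrays with any TNF spanned 681 to 1857 at 8 h, against 306 to 662 in the 6 arrays without TNF, and 1602 to 3295 at 16 h against 637 to 982. At these times the arrays with and without TNF therefore did not overlap, although the gap at 8 h was narrow. At 4 h they did overlap, with 450 to 1134 against 169 to 583.

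DUSP6, the cytoplasmic phosphatase of ERK, differed with TNF mainly at 4 h. Its signals in untreated cells were 507 and 554 at 4 h, 1693 and 2160 at 8 h, and 1751 and 3228 at 16 h. With TNF 100 they were 1751 and 2615, 2159 and 2616, and 2690 and 2593. By this probe set, the brightest, the 2 untreated arrays at 4 h were lower than every other array of the series. From 8 h on its untreated values reached the range of its TNF values. The difference was 0.82 ± 0.19 over all times (1.76-fold; adjusted p = 0.000177; 5 of 6 pairs), made up of 1.99 at 4 h (adjusted p = 5.07e-05), 0.31 at 8 h and 0.15 at 16 h. The effect of TNF changed with time by the F test over the contrasts of 8 h and 16 h with 4 h (adjusted p = 0.0229). It was smaller at 16 h than at 4 h (-1.84 ± 0.46). By that F test 1.11% of all probe sets were called lower, and 1.37% by the contrast of 16 h with 4 h alone. That call rested on single arrays: it was lost without either untreated array at 4 h, untreated 16 h replicate 2, either TNF 100 array at 16 h, or TNF 100 4 h replicate 2, the last with the highest adjusted p (-1.55, adjusted p = 0.209), and when only the 2 treatments were fitted (adjusted p = 0.0637). The other probe sets of DUSP6 gave -2.33 (adjusted p = 3.24e-05) and -4.77 (adjusted p = 0.000201) for the same quantity. By the dimmest of them, the third, the mean TNF 100 difference was 1.53, also called.

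DUSP1, an immediate-early phosphatase of all 3 kinase families, rose with TNF 100 at 4 and 8 h. Its untreated signals were 299 and 394 at 4 h, 293 and 195 at 8 h, and 988 and 1023 at 16 h. With TNF 100 they were 737 and 735, 609 and 404, and 1218 and 1162. TNF arrays lay above untreated arrays at each time, by 0.78 ± 0.15 over all (1.71-fold; adjusted p = 0.00036; 6 of 6 pairs). By time it was 1.07 at 4 h (adjusted p = 0.00647), 1.02 at 8 h (adjusted p = 0.00954) and 0.24 at 16 h (adjusted p = 0.663), though a change of the effect between times was not called (adjusted p = 0.423). The calls at single times depended on single arrays, since the adjusted p at 4 h was 0.132 without untreated 4 h replicate 1 and 0.0648 or 0.0532 without TNF 100 4 h replicate 1 or 2. At 8 h it was 0.231 without untreated replicate 2 and 0.164 without TNF 100 replicate 1. Averaging with the second DUSP1 probe set, whose mean signal was 11.6, lowered the difference to 0.42 over all times, still called, and to 0.57 at 4 h (adjusted p = 0.132). At 8 h the 12 arrays with any TNF spanned 404 to 1218 and the 6 without it 195 to 382, without overlap, although the gap was narrow. They did overlap at 4 h, with 287 to 737 against 155 to 699, and at 16 h, with 931 to 1846 against 988 to 1817.

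DUSP10, a phosphatase of JNK and p38, had low signals and was called over the 3 times together. The untreated arrays gave 59.1 and 59.9 at 4 h, 65.5 and 40.1 at 8 h, and 93.0 and 95.004 at 16 h. The TNF 100 arrays gave 116 and 131, 104 and 121, and 78.1 and 88.2. They were above the untreated arrays at 4 and 8 h and below them at 16 h. The mean difference was 0.57 ± 0.18 (adjusted p = 0.0137; 4 of 6 pairs), namely 0.92 at 4 h, 0.96 at 8 h and -0.16 at 16 h, none of them called alone. The call was lost in 4 of the other settings, among them the fit of these treatments alone (adjusted p = 0.192) and without the 8 h arrays (adjusted p = 0.108). It was also lost without untreated 8 h replicate 2 (adjusted p = 0.0713) or TNF 100 8 h replicate 2 (adjusted p = 0.0508). The second DUSP10 probe set, which did not pass the filter, had an r of 0.08 with this one over the 27 group means.

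DUSP4, a nuclear phosphatase close to DUSP1 in sequence, was not called. Its signals were 46.7 and 56.6 at 4 h, 69.0 and 74.9 at 8 h, and 224 and 137 at 16 h in untreated cells. With TNF 100 they were 19.9 and 39.0, 16.4 and 24.995, and 106 and 136. The adjusted p was 0.206, and since DUSP4 entered the tests through the untreated group at 16 h alone, no direction is drawn from its comparisons with untreated cells.

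**Figure D2:**
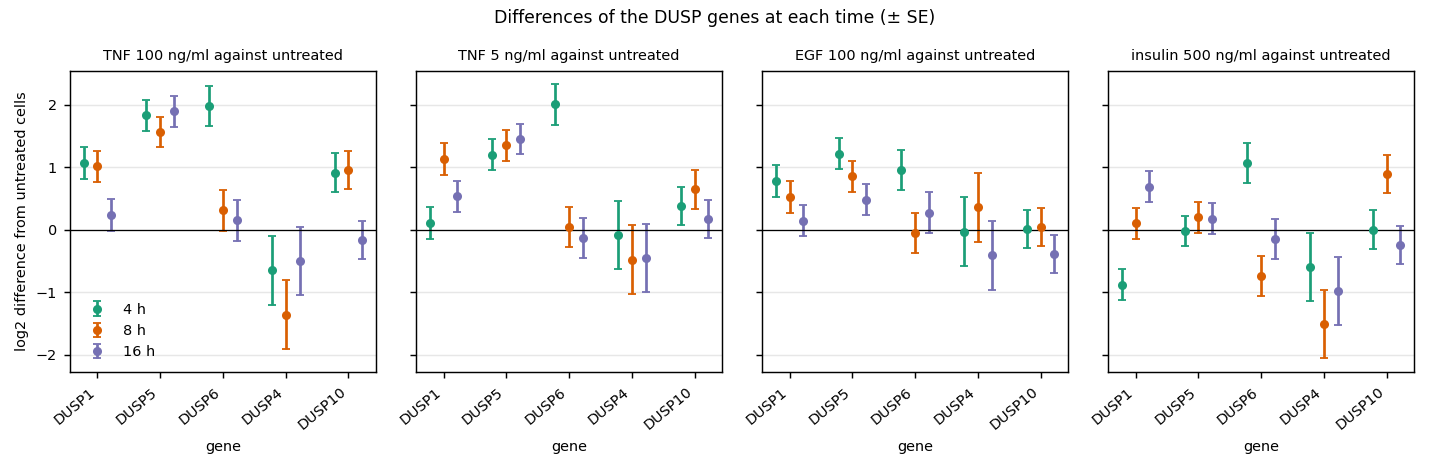
Log2 difference from untreated cells (± SE, 2 arrays per group) of each gene at 4, 8 and 16 h, in 4 panels for TNF 100, TNF 5, EGF 100 and insulin 500. DUSP5 lies between 1.57 and 1.90 at each time with TNF 100, whereas DUSP6 lies at 1.99 at 4 h and at 0.15 at 16 h.

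At 5 ng/ml, TNF raised 3 of the 5 phosphatases over untreated cells, DUSP5, DUSP6 and DUSP1 (background 4.27% called higher). The 5 genes had a median of 0.59 against -0.04 for all probe sets. DUSP5 gave 596 and 543 at 4 h, 1084 and 681 at 8 h, and 1962 and 1811 at 16 h, all above untreated arrays of the same time. Its rise was 1.34 ± 0.14 (2.53-fold; adjusted p = 1.69e-07; 6 of 6 pairs), and it was called at 4 h (background 1.64%), 8 h (2.03%) and 16 h (2.87%). The call at 4 h was lost without untreated 4 h replicate 2 (0.73, adjusted p = 0.285) or TNF 5 4 h replicate 1 (adjusted p = 0.0644), and that at 8 h without TNF 5 8 h replicate 1 (adjusted p = 0.0586). DUSP6 gave 2338 and 2012, 1962 and 1997, and 2012 and 2350, nearly level over time. Its mean rise of 0.64 ± 0.19 (adjusted p = 0.000363; 1.16 by the third probe set) comprised 2.01 at 4 h (adjusted p = 9.5e-05), 0.05 at 8 h and -0.13 at 16 h.

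The effect of TNF 5 on DUSP6 was also smaller at 16 h than at 4 h (-2.14 ± 0.46). The F test over both contrasts with 4 h gave an adjusted p = 0.0102. By it 0.395% of probe sets were called lower, and 0.477% by the contrast of 16 h with 4 h alone. This result shares the untreated arrays with that for TNF 100. Without untreated 4 h replicate 1 its adjusted p was 0.0683, and without TNF 5 4 h replicate 1 it was 0.0908. DUSP1 gave 398 and 347 at 4 h, 660 and 439 at 8 h, and 1473 and 1459 at 16 h. The rise was 0.59 ± 0.15 (adjusted p = 0.00675; 5 of 6 pairs), most at 8 h (1.13, adjusted p = 0.00622). The call over the 3 times was lost without the 8 h arrays (0.32, adjusted p = 0.336) and after median centring of the arrays (adjusted p = 0.0676). With only these treatments fitted it was lost too (adjusted p = 0.0552). It was also lost without untreated 8 h replicate 2 or TNF 5 8 h replicate 1 (0.50 in each). The call at 8 h alone was lost after median centring (1.02, adjusted p = 0.073) and without either of those arrays (0.85 and 0.84). DUSP10 (0.40, adjusted p = 0.478) and DUSP4 (adjusted p = 0.92) were not called.

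Between the TNF doses 0 of 5 phosphatases were called by limma, 2 at an unadjusted p under 0.05, and 1.27% of probe sets were called in either direction. DUSP5 was higher with 100 than with 5 ng/ml in 6 of 6 pairs, by 0.43 ± 0.14 (adjusted p = 0.387), a difference that did not pass. DUSP1 differed by 0.96 at 4 h, -0.12 at 8 h and -0.30 at 16 h (adjusted p = 0.144 over the 3 times). With the replicate number as a block within 8 h the adjusted p of DUSP1 was 0.014, and with a block within each time 0.0091.

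EGF at 100 ng/ml raised 1 of the 5 phosphatases, DUSP5, over untreated cells (background 0.522% called higher; median 0.40 for the 5 genes and -0.03 for all). Its signals with EGF were 564 and 583 at 4 h, 662 and 557 at 8 h, and 982 and 931 at 16 h, each above the untreated arrays of that time. The rise was 0.85 ± 0.14 (1.81-fold; adjusted p = 0.00227; 6 of 6 pairs), and 4 h was the time called alone (1.22, adjusted p = 0.0093; background 0.365%). At 4 h the call was lost without any 1 of 3 arrays, the farthest being untreated replicate 2 (0.74, adjusted p = 0.504), the others both EGF replicates (adjusted p = 0.0935 and 0.115). When the 2 treatments were fitted alone, the adjusted p over all times was 0.17.

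The probe sets of DUSP6 disagreed on whether EGF passed the test. By its brightest probe set the EGF arrays gave 756 and 1428 at 4 h, 1969 and 1743 at 8 h, and 2435 and 3417 at 16 h, a difference of 0.40 ± 0.19 (adjusted p = 0.775) with 0.96 at 4 h. By the second probe set it was 0.50 ± 0.13 (adjusted p = 0.00227) with 1.44 at 4 h, and by the third 1.44 ± 0.31 (adjusted p = 0.000911) with 3.65 at 4 h. All 3 placed both EGF arrays above both untreated arrays at 4 h. In the third probe set untreated cells had signals of 36.7 and 21.7 at 4 h, against 575 and 438 with EGF and 863 and 820 with TNF 100. Over the 27 group means the other 2 probe sets had an r of 0.92 and 0.88 with the brightest. A dependence of the EGF effect on time was called for 0 of the 5 genes by limma (0 at an unadjusted p under 0.05; 0.0447% of probe sets called). DUSP1 was higher with EGF in 6 of 6 pairs, at 699 and 513 at 4 h, 382 and 322 at 8 h, and 1038 and 1201 at 16 h, but it did not pass (0.49 ± 0.15, adjusted p = 0.36; 0.0409 with the replicate block within 8 h).

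**Figure D3:**
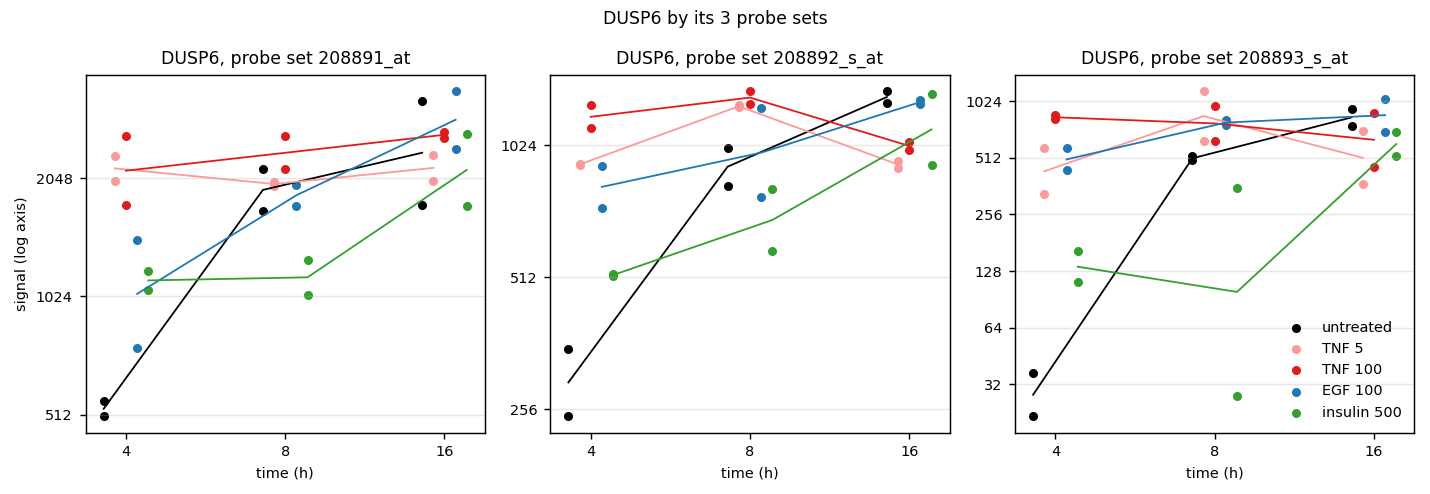
DUSP6 signal (log axis) at 4, 8 and 16 h by its 3 probe sets (the brightest at left, the second and the third to its right), in untreated cells and with TNF 5, TNF 100, EGF 100 or insulin 500 (points are arrays, 2 per group; lines join geometric means). In each panel the untreated arrays at 4 h are the lowest of that time, and both insulin arrays at 8 h are below both untreated arrays of that time.

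Insulin at 500 ng/ml changed 0 of the 5 phosphatases by limma, although 4 had an unadjusted p under 0.05 (background 0.224% called in either direction). DUSP1 signals with insulin were 155 and 212 at 4 h, 282 and 236 at 8 h, and 1464 and 1817 at 16 h. They were below both untreated arrays at 4 h and above both at 16 h, with differences of -0.87, 0.10 and 0.69 (adjusted p = 0.189 over the 3 times; 0.0123 with the replicate block within 8 h). DUSP6 gave 1063 and 1191, 1033 and 1270, and 1743 and 2650, with differences of 1.07, -0.73 and -0.14 (adjusted p = 0.323). With the replicate block within each time the adjusted p was 0.0082 for DUSP1 and 0.00516 for DUSP6. In the third probe set the 2 insulin arrays at 8 h stood far apart, at 353 and 27.9. The second of these arrays also had the second highest log2 ratio of 3′ to 5′ ACTB signal, 0.98, a sign of shortened RNA whose part in this value was not tested. DUSP5 was 240 and 234 at 4 h, 379 and 380 at 8 h, and 725 and 820 at 16 h, close to the untreated values (0.12 ± 0.14). DUSP4 was not called (adjusted p = 0.587).

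Set directly against insulin, EGF gave higher DUSP1 and DUSP5 (2 of 5 called; background 0.551% called higher). DUSP1 differed by 0.51 ± 0.15 (adjusted p = 0.000743; 4 of 6 pairs), namely 1.66 at 4 h (adjusted p = 0.000255; background at 4 h 0.231%), 0.43 at 8 h and -0.54 at 16 h. DUSP5 differed by 0.73 ± 0.14 (adjusted p = 0.00953; 6 of 6 pairs), namely 1.23 at 4 h (adjusted p = 0.0148). Both calls were lost when these treatments were fitted alone (adjusted p = 0.0722 and 0.064). With the mean of its probe sets DUSP1 differed by 0.25 (adjusted p = 0.144) and by 0.87 at 4 h (adjusted p = 0.0598). DUSP6 was not called by its brightest probe set (0.33 ± 0.19, adjusted p = 0.79) or by the second (0.45, adjusted p = 0.30). By the third it was called (1.68 ± 0.31, adjusted p = 0.00536), as it was by the mean of its probe sets (0.82, adjusted p = 3.78e-05). The DUSP5 call was also lost without any 1 of the 4 arrays at 4 h (adjusted p up to 0.068 over all times, and up to 0.174 at 4 h).

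Adding EGF at 100 ng/ml to TNF at 100 ng/ml changed 0 of the 5 phosphatases relative to TNF alone by limma (1 at an unadjusted p under 0.05; background 0.246%). DUSP5 in the mixture was 1134 and 1033 at 4 h, 1857 and 1417 at 8 h, and 3240 and 3220 at 16 h. It was higher than with TNF alone in 6 of 6 pairs, by 0.44 ± 0.14, which did not pass (adjusted p = 0.90). Relative to EGF alone, the mixture raised 3 of the 5, DUSP5, DUSP6 and DUSP10 (background 5.67% called higher; median 0.62 against -0.06 for all). DUSP5 rose by 1.35 ± 0.14 (adjusted p = 4.48e-08; 6 of 6 pairs), namely 0.90 at 4 h (adjusted p = 0.037; background 1.65%), 1.40 at 8 h (background 2.66%) and 1.74 at 16 h (background 5.16%). The 4 h value was not called without any 1 of its 4 arrays (adjusted p up to 0.262).

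DUSP6 in this mixture was 1977 and 2304 at 4 h, 3266 and 3449 at 8 h, and 2215 and 3623 at 16 h. Against EGF alone it differed by 0.62 ± 0.19 (adjusted p = 0.0238; 5 of 6 pairs), a call lost without the 8 h arrays (adjusted p = 0.108), by the third probe set (adjusted p = 0.52) and without EGF 4 h replicate 1 (0.47, adjusted p = 0.146), EGF 8 h replicate 2, or replicate 2 of the mixture at 4 or 8 h. DUSP10 was 103 and 104, 99.1 and 114, and 97.1 and 137, higher than with EGF in 6 of 6 pairs by 0.73 ± 0.18 (adjusted p = 0.0243). Its call was lost without EGF 4 h replicate 1, EGF 8 h replicate 2 or EGF 16 h replicate 1. The same held without replicate 2 of the mixture at 8 or 16 h, the differences in these fits being 0.64 to 0.71. The DUSP10 call was also lost when these treatments were fitted alone (adjusted p = 0.218) and without the 8 h arrays (adjusted p = 0.109). With the mean of both DUSP10 probe sets it was lost too (0.51, adjusted p = 0.238). DUSP1 did not pass (0.33 ± 0.15), though its adjusted p was 0.022 with the replicate block within 8 h. DUSP4 was lower in 6 of 6 pairs (-0.83 ± 0.32) and did not pass. The interaction of TNF with EGF, the effect of the mixture beyond the sum of both factors in log2, was called for 0 of the 5 genes by limma (1 at an unadjusted p under 0.05; background 0.0298%).

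Insulin at 500 ng/ml with TNF at 100 ng/ml raised 1 of the 5 phosphatases over TNF alone, DUSP1 (background 0.417% called higher). The mixture gave DUSP1 signals of 498 and 417 at 4 h, 1218 and 947 at 8 h, and 1846 and 1842 at 16 h. These were below TNF alone at 4 h and above it at 8 and 16 h. The difference was -0.68, 1.10 and 0.63 at the 3 times (mean 0.35 ± 0.15, adjusted p = 0.0141), and 8 h was called alone (adjusted p = 0.0395; background 0.328%). Without TNF 100 8 h replicate 2, the array with the highest ACTB 3′ to 5′ log2 ratio (1.19), the adjusted p was 0.132 over all times and 0.718 at 8 h. It was 0.111 and 0.456 without mixture 8 h replicate 1, and at 8 h also 0.051 without mixture replicate 2. Without the 8 h arrays the mean difference was -0.025 (adjusted p = 0.19).

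Against insulin alone the same mixture raised 3 of the 5, DUSP5, DUSP1 and DUSP6 (background 8.87% called higher; median 0.84 against -0.08). DUSP5 was 450 and 634 at 4 h, 1616 and 1055 at 8 h, and 3295 and 3132 at 16 h, and its rise was 1.64 ± 0.14 (adjusted p = 3.64e-10; 6 of 6 pairs). It was called at 4 h (1.13; background 2.35%), 8 h (1.75; background 5.25%) and 16 h (2.04; background 7.25%). At 4 h that call was lost without mixture replicate 2 (adjusted p = 0.088). DUSP1 rose by 1.15 ± 0.15 (adjusted p = 6.32e-08; 6 of 6 pairs), namely 1.27 at 4 h, 2.01 at 8 h and 0.18 at 16 h, or 0.59 by the mean of its probe sets, still called. At 4 h its call was lost without insulin replicate 1 (adjusted p = 0.0592). DUSP6 was 1400 and 2532, 2893 and 4340, and 2208 and 2629, a rise of 0.84 ± 0.19 (adjusted p = 0.000791), largest at 8 h (1.62, adjusted p = 0.000559), at 1.81 by the third probe set, and lost without the 8 h arrays (0.45, adjusted p = 0.274). The interaction of TNF with insulin was called for 0 of the 5 genes by limma (1 at an unadjusted p under 0.05; background 0.00745%).

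At the low doses, neither EGF at 1 ng/ml nor insulin at 5 ng/ml changed a phosphatase when added to TNF at 5 ng/ml. In both comparisons 0 of 5 genes were called by limma, 0 had an unadjusted p under 0.05, and the background was 0%. The mean differences of DUSP5 were 0.28 ± 0.14 with EGF 1 and 0.02 ± 0.14 with insulin 5, and those of DUSP1 were 0.09 ± 0.15 and -0.23 ± 0.15. All 4 are smaller than the effects of TNF 5 itself on these genes.

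In untreated cells DUSP1, DUSP5 and DUSP6 rose between 4 and 16 h (3 of 5 called; background 5.69% called higher by the F test and 5.87% by the contrast of 16 h with 4 h; median 1.52 against -0.01). For DUSP6 the rise was 2.14 ± 0.32 (adjusted p = 1.49e-05), of which 1.83 was reached at 8 h (adjusted p = 0.002; background 0.276%). DUSP1 rose by 1.52 ± 0.25 (adjusted p = 9.59e-07), after -0.50 at 8 h, and DUSP5 by 1.46 ± 0.25 (adjusted p = 0.000185), after 0.44 at 8 h. With only the untreated arrays fitted the adjusted p of DUSP5 was 0.0622. DUSP6 thus had most of this rise by 8 h, whereas DUSP1 and most of the rise of DUSP5 followed after 8 h. No contrast of 16 h with 8 h was tested. By the second DUSP6 probe set untreated arrays went from 828 and 1010 at 8 h to 1279 and 1357 at 16 h. By the third they went from 522 and 496 to 933 and 756. The third DUSP6 probe set gave 4.38, and the mean of both DUSP1 probe sets 0.86, both called. DUSP4, which entered the tests through this 16 h group, was not called (adjusted p = 0.134), nor was DUSP10 (0.57 ± 0.31, adjusted p = 0.248). Over all 9 treatments DUSP1 spanned 155 to 737 at 4 h, 195 to 1218 at 8 h and 931 to 1846 at 16 h, so that no 4 h array reached the 16 h range. Time is shared by all arrays collected together, and time after the treatment cannot be told apart from time after priming, plating or a change of medium.

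**Figure D4:**
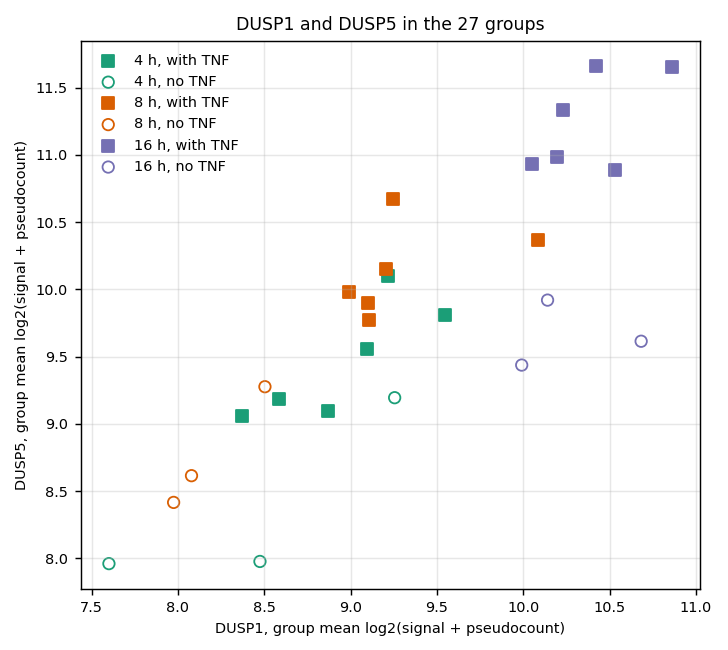
Group means of DUSP1 and DUSP5, in log2(signal + pseudocount), for the 27 groups, coloured by time, with filled squares for groups with TNF and open circles for groups without it. Pearson's r is 0.83; at 8 and 16 h the squares lie above the circles on the DUSP5 axis, and all 16 h groups but 2 lie to the right of every 8 h group; TNF 100 with insulin at 8 h lies to the right of those 2, untreated and TNF 5 with insulin 5.

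Over the 27 group means the levels of DUSP1 and DUSP5 had the highest correlation among the 5 genes (Pearson r 0.83), followed by DUSP5 and DUSP6 (0.67), DUSP1 and DUSP4 (0.58) and DUSP1 and DUSP6 (0.53). DUSP4 and DUSP10 had an r of -0.34. These points share times and treatments, and the values describe the groups. Among 4783 genes whose group means ranged over at least 1 log2 unit, the 5 most like DUSP5 were ISG20 (r 0.97), SERPINB9 (0.96), SAT1 (0.96), SAMD9 (0.95) and TSC22D1 (0.94). Those most like DUSP1 were KLF4 (0.93), GTPBP2 (0.93), SMOX (0.92), BTG1 (0.92) and MAFF (0.92). For DUSP6 the closest were IER3 (0.83), itself a target of ERK, and PMAIP1 (0.81), TRIM15 (0.80), IST1 (0.79) and CYP3A5 (0.79). DUSP4 was followed most closely by OCLN (0.89), SLC35A1 (0.88), ADGRG6 (0.88), AMIGO2 (0.86) and PDGFA (0.86), and DUSP10 by KCNK5 (0.76), PTGS2 (0.75), ITPKC (0.75), TNF (0.74) and NINJ1 (0.73).

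Other DUSP genes mostly did not pass the test. Of 12 listed, 8 entered the tests. With TNF 100 against untreated cells 1 rose (6.68% of all probe sets did), DUSP7 (0.57 ± 0.12, adjusted p = 0.00374), and with TNF 5 1 rose (4.27% of all), DUSP11 (0.33 ± 0.11, adjusted p = 0.0388). EGF, insulin and time in untreated cells changed 0 of the 8 by limma. Their median with TNF 100 was 0.08, against 0.78 for the 5 phosphatases and -0.08 for all probe sets. Because the 5 were chosen with earlier results of these data known, this is no test of them against other DUSP genes. With TNF and EGF against EGF, 1 of 8 fell, DUSP2 (-0.96 ± 0.25, adjusted p = 0.0317), where 1169 of 13422 probe sets were lower. The most calls, 2 higher and 1 lower by the mean, came with TNF and insulin against insulin. There 1191 of 13422 probe sets were higher and 1538 lower. Each of these genes changed sign between times. At 4, 8 and 16 h DUSP8 differed by -0.20, 1.99 and -0.23 (mean 0.52 ± 0.24). DUSP7 differed by -0.51, 0.11 and 1.24 (mean 0.28 ± 0.12), and DUSP22 by -0.11, -0.85 and 0.30 (mean -0.22 ± 0.12).

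Of 22 measured MAP kinases and their upstream kinases, 1 rose and 1 fell with TNF 100, the median being -0.11. That share is below the one over all probe sets, of which 896 of 13422 were higher and 1291 lower, and the named genes are given as single values. MAPK9, which encodes JNK2, fell by 0.77 ± 0.12 on the log2 scale (adjusted p = 6.69e-05). MAPK6 rose by 0.20 ± 0.08 (adjusted p = 0.0397), but its difference at 16 h was -0.13. MAPK9 also fell with TNF 5 (-0.56), with TNF and EGF against EGF (-0.73) and with TNF and insulin against insulin (-0.91). In the last 2 comparisons 2 of 22 rose and 4 fell, and 2 rose and 3 fell. Over all 13422 probe sets 761 were higher and 1169 lower in the comparison with EGF, and 1191 and 1538 in that with insulin. MAP3K5, the stress-activated kinase ASK1, fell in both comparisons (-0.69 and -0.66). Against EGF, MAP2K5 fell (-1.43) and MAP3K8 rose (1.08). Against insulin SOS1 (mean 0.31) and MAP2K2 (mean 0.30) were called higher but changed sign between times. At 4, 8 and 16 h SOS1 differed by -0.33, 0.68 and 0.58, and MAP2K2 by -0.32, 0.02 and 1.21.

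Among 6 measured genes other than DUSPs, listed for links to feedback on ERK signalling, 1 rose and 1 fell with TNF 100. Of all 13422 probe sets 896 were higher and 1291 lower. IER3 rose (0.93 ± 0.08, adjusted p = 1.92e-11). It is a target of ERK and is not counted here as an inhibitor, and its action on ERK was not tested. SPRY2, a Sprouty protein that blocks signalling from receptor tyrosine kinases, fell (-0.84 ± 0.13, adjusted p = 5.17e-06). With EGF 2 of 6 rose (0.522% of all probe sets did), PHLDA1 (0.95 ± 0.13) and IER3 (0.33 ± 0.08, but -0.23 at 16 h). With insulin 2 of 6 rose, PHLDA1 (0.48) and IER3 (0.45), with 0.224% of all probe sets called in either direction. In untreated cells 3 of 6, PHLDA1 (3.72), IER3 (2.26) and SPRY4 (0.95), rose from 4 to 16 h, with 5.69% of all probe sets called higher. Like DUSP6, IER3 had a smaller effect of TNF 100 at 16 h than at 4 h (-1.12 ± 0.20). The F test over both contrasts with 4 h gave an adjusted p = 8.53e-05.

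Of 17 measured transcription factors that ERK or JNK signalling is known to induce or activate, 6 rose and 3 fell with TNF 100 (median 0.20). Over all 13422 probe sets 896 (6.68%) were higher and 1291 lower. FOSL1 (1.19 ± 0.11), KLF6 (1.14 ± 0.26) and ETS1 (1.11 ± 0.28) rose, and FOS fell (-1.14 ± 0.27, adjusted p = 0.015). With EGF 4 of 17 rose and none fell (0.522% of all probe sets higher), among them FOSL1 (0.98), KLF6 (0.87) and EGR1 (0.67), and with insulin 1 rose, FOSL1 (0.82 ± 0.11; 0.224% of all called in either direction). In untreated cells 9 of 17 rose with time and none fell (5.69% of all higher), with KLF6 at 2.82, ATF3 at 2.77, EGR1 at 2.65 and FOS at 2.52.

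The arrays themselves were similar in overall signal, with medians of 110.9 to 168.0, and the replicates of a group correlated at 0.945 to 0.977 across probe sets. Of 10 colon epithelial markers, 8 (EPCAM, CDH1, KRT8, KRT18, KRT19, KRT20, LGALS4 and CEACAM5) were above the array median on 54 of 54 arrays, VIL1 on 46 and CDX1 on 0. Of 8 markers of blood, fibroblast and endothelial cells, PTPRC, COL3A1 and VWF were above it on 0 arrays, CD14 and COL1A1 on 4, COL1A2 on 3, CD3E on 24 and PECAM1 on 33, with median ratios to the array median of 0.0988 to 1.11. In these bulk samples a change in RNA per cell cannot be told apart from a change in the share of cells.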

How the data were processed

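RNA of HT-29 cells was hybridised to 54 Affymetrix arrays, 2 biological replicates in each of 27 groups. The deposited values are linear signal intensities that the authors computed with MAS5, per the submitters' processing notes. Trimmed by 2% at either end, array means were all 500.2, and the deposited scaling was kept. The number of arrays limits the precision. After removal of 68 control probe sets from 22283, log2(signal + 12.49) was computed, 12.49 being the 10th percentile of all signals, and the 13422 of 22215 probe sets with a group mean of at least 7.24 (signal 138.9) were tested. The platform table paired 19065 of the 22215 with 1 symbol, 1043 with more than 1 and 2107 with no symbol.

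A model with 27 group means was fitted to all arrays in limma 3.58.1 (R 4.3.3; 27 residual degrees of freedom, trend and robust prior), and the procedure was checked on simulated data. Each comparison was a moderated F test over the differences at 4, 8 and 16 h; changes over time were tested by the 8 h and 16 h contrasts with 4 h. Adjustment was by Benjamini and Hochberg at 0.05. Direction is that of the mean difference, or of 16 h minus 4 h. The genes, lists, named-gene rule (the 5 phosphatases, the 5 genes most like each by group means, and up to 4 called genes of each list) and tests were chosen with earlier results of these data known. Replicate numbers were not blocks in the main model. Residuals of arrays with 1 number correlated above 0.1 in 36 of 36 pairs of groups at 8 h (median r 0.43). At 4 h this held in 27 of 36 (median r 0.20) and at 16 h in 31 of 36 (0.205). Arrays with 1 number were thus alike at each time, most at 8 h, and the counts with blocks are given below. Alternatives changed the pseudocount, filter, scaling, variance model, samples, block and probe set.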

Additional observations from a re-analysis of the deposited data

Results flagged for a closer look

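In 5 results the effect of a treatment on a phosphatase changed with time by limma's F test over the contrasts of 8 h and 16 h with 4 h. Its p is adjusted over all probe sets and covers both contrasts. The sizes given are those of 16 h minus 4 h unless another time is named. For DUSP6 the difference between TNF at 100 ng/ml and untreated cells moved by -1.84 from 4 to 16 h (adjusted p = 0.0229). That between TNF at 5 ng/ml and untreated cells moved by -2.14 (adjusted p = 0.0102). Both share the untreated arrays, and both calls were lost without single arrays, as given above.

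The other 3 results concern DUSP1. The difference between EGF and insulin moved by -2.20 from 4 to 16 h (adjusted p = 0.0178; 0.0149% of probe sets called), from above 0 to below it. That between TNF with insulin and TNF alone moved by 1.77 from 4 to 8 h and by 1.30 from 4 to 16 h (adjusted p = 0.0446, 0.119% called), from below 0 to above it. That between TNF with insulin and insulin alone moved by 0.74 from 4 to 8 h but by -1.09 from 4 to 16 h (adjusted p = 0.00364, 4.46% called). These comparisons share arrays of insulin alone or of both factors. The 3 changes with time of DUSP1 were not examined in the other settings or without single arrays.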

How the results depend on the processing

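Of 46 called results of the 5 phosphatases, counting single times, 22 stayed called in all 16 settings that applied and without each array in turn; the cause of the other losses was not tested. The number of phosphatases called for TNF 100 with insulin against TNF 100 fell from 1 to 0 after median centring, with only those treatments fitted, without the 8 h arrays, without the 2 arrays of highest ACTB ratio and with the mean of all probe sets of a gene; without the 8 h arrays the DUSP1 difference also turned to -0.025. With only the treatments compared, the count became 0 for EGF against untreated cells, EGF against insulin and the time dependence of the TNF 100 effect. Without the 8 h arrays it was 1 for TNF 100 against TNF 5, for insulin and for TNF with EGF against EGF. With the mean of all probe sets it was 2 for EGF and 1 for insulin, both interactions and the time dependence of EGF, and the DUSP6 difference with insulin turned to -0.042 (adjusted p = 2.34e-05). For EGF against insulin that mean called DUSP6 in place of DUSP1. Either of the other DUSP6 probe sets, chosen after seeing the data, gave 2 for EGF.

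With the replicate number as a block the counts were 1 for TNF 100 against TNF 5 and 2 for insulin. With the block within each time they were 1, 2 for EGF, 2 for insulin and 1 for the interaction of TNF with insulin, and with the block within 8 h, chosen after seeing the data, 1, 2 for EGF and 1 for insulin. The block changed no other count by over 1.5 times. Leaving out 1 array at a time gave 1 to 2 for EGF against insulin, 1 to 3 for TNF with EGF against EGF, and 0 to 1 for TNF with insulin against TNF and for the time dependence of both TNF effects.

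Scaling moved the median of all probe sets with TNF 100 from -0.08 as deposited to -0.04 (quantile) and -0.01 (median centring). DUSP4 and DUSP10 were near or under the median signal, where differences are least resolved.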
